A study of Mus musculus with 20 samples.

Results

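The genes described here belong to gene families with many copies that are transcribed in the oocyte and in the first cleavages of the mouse embryo. They were chosen by symbol alone, as the Zscan4, Tcstv, Obox, Pramef, Pramel and Usp17l genes and Zfp352. In all, 31 of the 34937 genes counted were members (4 Zscan4, 2 Tcstv, 7 Obox, 6 Pramef, 6 Pramel and 5 Usp17l genes, and Zfp352). The symbol rule matched 33 genes, and Zscan4a and Zscan4e are not analysed here.

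RNA of single 8C (8-cell) embryos collected at E2.5 was sequenced from 9 Ehmt2Cntr embryos and 10 Ehmt2Mat embryos of mixed background. Ehmt2 encodes the histone H3K9 methyltransferase G9a, and the study asked how loss of the G9a inherited from the oocyte alters gene expression in cleavage embryos. Control mothers were Ehmt2F/+ and mothers of Ehmt2Mat embryos were Ehmt2F/-, and both carried Zp3-Cre, which is driven by an oocyte promoter and recombines the conditional allele while the oocyte grows. Fathers were Ehmt2+/-. The embryo's own genotype was +/+ in 6 controls and +/- in 3, and among Ehmt2Mat embryos it was -/- in 5 (Ehmt2M/Z) and +/- in 5 (Ehmt2M/+). Control embryo 4 was not analysed here. Embryos came from natural matings, had normal morphology and were freed of the zona before lysis, and the amplified cDNA was biased to the 3′ end of transcripts. Mothers and litters were not given, so p-values measure the spread between these embryos. In RNA of a whole embryo, fewer cells of a type and less RNA per cell cannot be told apart.

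Zscan4 genes encode SCAN domain zinc finger proteins that mark the 2-cell embryo and a rare state of embryonic stem cells, where they act at telomeres. Tcstv genes and the zinc finger gene Zfp352 are transcripts of the same stage, and much of this programme is switched on by the homeodomain factor DUX. Obox genes encode homeodomain proteins, Pramef and Pramel genes encode leucine-rich repeat proteins related to the tumour antigen PRAME, and Usp17l genes encode deubiquitinating enzymes.

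Total counts were between 12985149 and 30053248 in controls (median 16515440) and between 8231646 and 30602434 in Ehmt2Mat embryos (median 16045893), so that 3 counts were worth 0.0911 to 0.363 CPM (counts scaled to 1000000 counts of normalised library size) depending on the embryo. Floors of this kind cover counting error only. Ehmt2 itself had 142 ± 59.7 CPM in controls (SD, n = 9) and 102 ± 32.7 CPM in Ehmt2Mat embryos (SD, n = 10), a log2 fold change of -0.47 (SE 0.24) that did not pass the test (edgeR, adjusted p = 0.233). These counts take in all exons of the gene and therefore do not by themselves check the genotype. The 8C label was checked against a marker list, of which 8 of 10 (Pou5f1, Tfap2c, Tead4, Klf5, Gata6, Nanog, Dppa3 and Klf17) had counts in every embryo, with Tead4 at 151 CPM or more. The other 2 were low in most embryos, Sox2 with medians of 0.0904 CPM in controls and 0 in Ehmt2Mat embryos and Cdx2 with medians of 0 in both. Oviduct markers, whose part in the results below was not tested, summed to 14.0 to 592 CPM in controls and 50.5 to 3303 CPM in Ehmt2Mat embryos, and 0 of the 6 tested (of 8 listed) were called. The highest sums were largely Ovgp1, with 46.3 ± 122 CPM in controls (SD, n = 9) and 495 ± 860 CPM in Ehmt2Mat embryos (SD, n = 10). It reached 2799 CPM in Ehmt2Mat embryo 3, and its log2 fold change was 3.41 (SE 1.27, edgeR, adjusted p = 0.0926). The 10 markers of cumulus and granulosa cells, whose part was not tested either, summed to 22.4 to 110 CPM in controls and 42.1 to 166 CPM in Ehmt2Mat embryos. Nearly all of this was Amhr2, the only one tested, with 54.6 ± 26.6 CPM (SD, n = 9) and 75.2 ± 35.1 CPM (SD, n = 10), which was not called (edgeR, adjusted p = 0.357), and 5 of the 10 (Amh, Foxl2, Fshr, Has2 and Ptx3) were at 0 in every embryo.

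Some copies of these families are close to identical, which limits what a 50 bp read can tell apart. In GENCODE M21 transcripts (GRCm38), the share of 50-base windows found in no other gene was 9.88% for Zscan4b, 13.2% for Zscan4f, 14.5% for Zscan4c and 50.4% for Zscan4d, and the coding sequences of Zscan4c and Zscan4f were 99.6% identical. Zscan4d was 97.7% identical to each of them. The window below, inside the coding exons, shows a place where Zscan4d can be told from its relatives and Zscan4c and Zscan4f cannot. This window was chosen for its many differences in Zscan4d, with none in Zscan4f. It lies at chr7:11009150-11009199 (plus strand) in Zscan4c, chr7:11401343-11401392 (plus strand) in Zscan4f, chr7:11162718-11162767 (minus strand) in Zscan4d and chr7:10901591-10901640 (minus strand) in Zscan4b, and capitals mark a base unlike the most common base at that place (in ties, the tied base first in the alphabet was taken as the common one).
Zscan4c: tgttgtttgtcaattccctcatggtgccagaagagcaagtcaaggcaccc
Zscan4f: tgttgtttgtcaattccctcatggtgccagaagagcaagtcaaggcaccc
Zscan4d: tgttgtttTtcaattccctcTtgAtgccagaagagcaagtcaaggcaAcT
Zscan4b: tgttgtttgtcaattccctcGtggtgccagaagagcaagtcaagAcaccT

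Zscan4d differs from Zscan4c at 5 places of this window and Zscan4b at 3, while Zscan4f does not differ. Usp17lb, the Usp17l gene with the highest level, was easier to tell apart, with 78.6% of its windows unique and 78.4% to 81.1% coding identity to its 4 relatives. Its window at chr7:104840568-104840617 (minus strand) is set against those of Usp17la (chr7:104861291-104861340, plus strand) and Usp17lc (chr7:103418601-103418650, plus strand), with capitals again marking a base unlike the most common base over all 5 Usp17l genes.
Usp17lb: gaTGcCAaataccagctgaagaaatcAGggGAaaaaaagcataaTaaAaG
Usp17la: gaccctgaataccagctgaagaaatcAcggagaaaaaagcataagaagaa
Usp17lc: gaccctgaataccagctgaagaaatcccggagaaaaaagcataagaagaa

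In Usp17lb, 10 to 12 of these 50 bases differ from each relative, in a window chosen for its many differences. Obox1 (42.6% of windows unique) and Obox2 (34.9%) overlap on the same strand of chromosome 7, so a read in a shared exon was counted for both. Their coding sequences share whole windows, shown here beside Obox5, at chr7:15555178-15555227 in Obox1, chr7:15396861-15396910 in Obox2 and chr7:15757553-15757602 in Obox5, all on the plus strand.
Obox1: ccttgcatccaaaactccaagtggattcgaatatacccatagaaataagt
Obox2: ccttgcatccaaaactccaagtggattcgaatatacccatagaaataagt
Obox5: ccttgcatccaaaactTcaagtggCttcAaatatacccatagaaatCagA

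The abundant members were far more distinct. Obox6 had 95% of its windows unique, Pramel7 98.6% and Pramel5 74.1%, and all windows were unique in Obox8, Pramel6, Pramel1, Pramef8, Pramef12 and Pramef20. Pramel4 was the exception among well-expressed members, with 12.6% of its windows unique and 85% shared with Gm13102. In 10 of the 31 members fewer than 50% of windows were unique. Windows were counted evenly over whole transcripts, and those shown lie in coding sequence, while the cDNA was biased to the 3′ end. These shares are therefore not shares of the reads. Values of single Zscan4 genes, Obox1, Obox2 and Pramel4 are therefore uncertain, and family sums are given beside them. Sums do not settle sharing with genes left out of them, such as Gm13102 for Pramel4. Likewise 71.4% of Zscan4c and 77.1% of Zscan4f windows occur in Zscan4-ps2, and 85.3% of Zscan4b windows in Zscan4e.

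Most of what was counted came from a few genes. Obox6, Obox8, Pramel6, Pramel7 and Pramel5 held 96% of all member counts, and the 31 members together held 0.317% to 0.466% of an embryo's counts in controls and 0.329% to 0.676% in Ehmt2Mat embryos. Per kilobase of exon, the mean level over all 19 embryos was 1371 CPM for Obox6, 755 for Obox8, 313 for Pramel6, 214 for Pramel7 and 141 for Pramel5. Next came Pramef12 with 25.7 and Pramel4 with 21.7 CPM per kilobase, then Usp17lb with 6.91. The Tcstv and Zscan4 genes and Zfp352, members typical of the 2-cell stage, were low on average. They had 2.09 CPM per kilobase for Tcstv3, 1.76 for Tcstv1, 0.662 for Zfp352 and 0.648 for Zscan4d, the highest Zscan4 gene. Before division by exon length Tcstv1 was the higher Tcstv gene, with a mean of 2.46 CPM against 1.07 CPM for Tcstv3. Division by exon length does not allow for the 3′ bias of the cDNA. The spread between embryos was wide, since Obox8 and Pramel7 each varied over more than 10-fold among the controls alone.

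**Figure D1:**
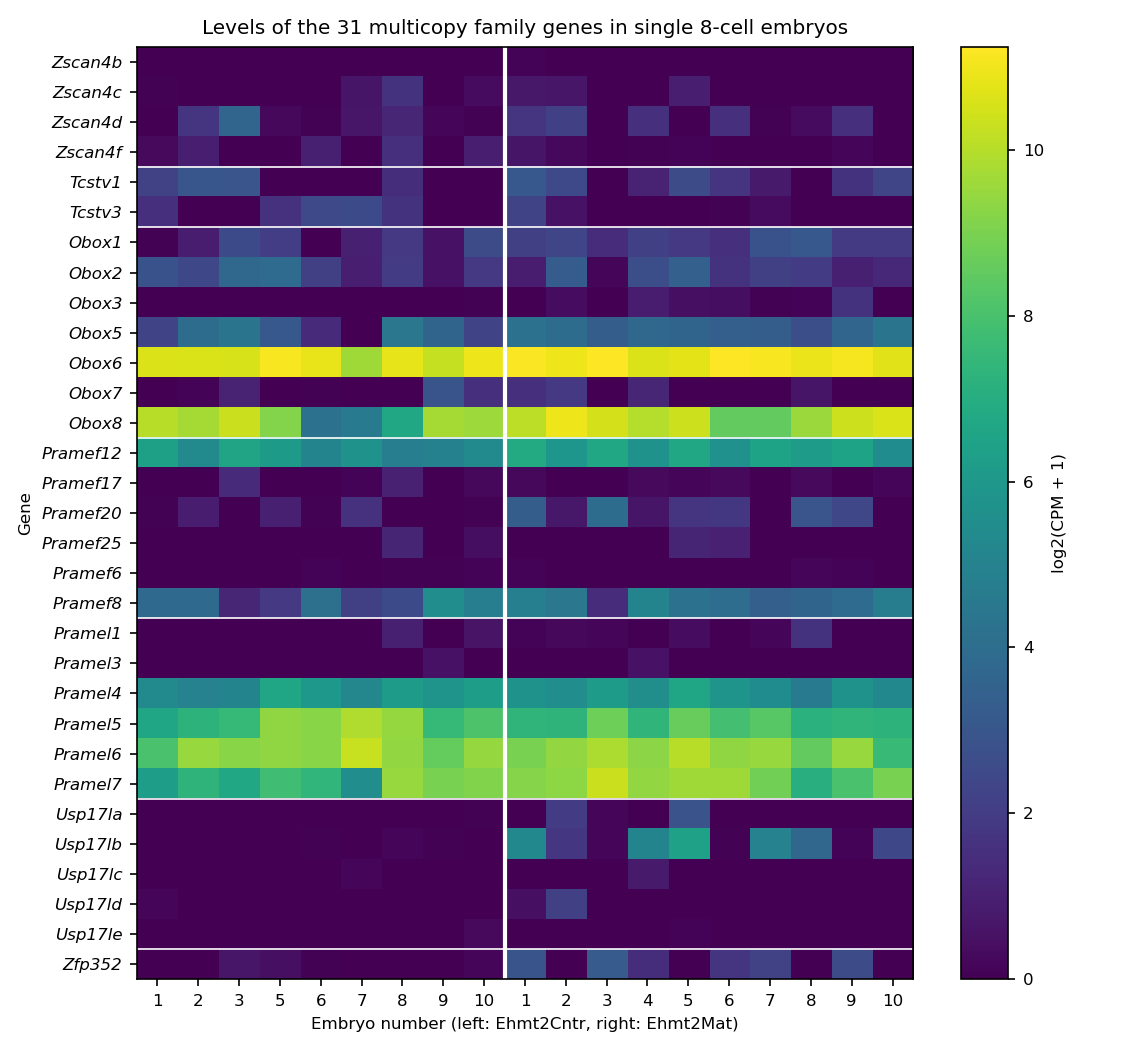
Level of each of the 31 genes (rows, by family) in each of the 19 embryos (columns, by embryo number, controls left of the white line), as log2(CPM + 1). The rows of Obox6, Obox8, Pramel5, Pramel6 and Pramel7 are bright in nearly every embryo, Usp17lb and Zfp352 are dark in the 9 controls and patchy in the 10 Ehmt2Mat embryos, and the Zscan4 rows stay dark with single brighter embryos in both groups.

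Every member had at least 1 count in some embryo, and 30 reached 3 counts in at least 1 embryo, whereas 57.84% of all genes did. In every embryo 8 members reached 3 counts. The number of members with 3 counts or more was 12 to 20 per control embryo (median 14) and 12 to 23 per Ehmt2Mat embryo (median 18). The medians differed by 4.0, where single embryos within groups had an SD of 3.17. After thinning all embryos to the lowest total the medians were 14 and 16 (SD 2.62). The difference was not tested.

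The main comparison asked whether members differ between Ehmt2Mat and Ehmt2Cntr embryos. The filter on low counts kept 13 members, and the other 18 lay below it. Of the 13, 0 were called by the edgeR quasi-likelihood test at an adjusted p under 0.05, while 9.35% of all 11754 genes tested were called. At an unadjusted p under 0.05 there were 5 (Obox6, Pramef12, Pramef20, Pramel5 and Pramel7), against 23.3% of all genes. Fold changes were above 0 in 9 members and below 0 in 4, with a median of 0.39 (log2) against -0.043 over all genes. No member had groups that did not overlap, which 0.519% of all genes had. DESeq2 gave an adjusted p to 23 members and called 4 (Obox3, Pramef20, Usp17lb and Zfp352, all higher in Ehmt2Mat), with 13.4% of 15365 genes called in either direction and 7% called higher. Without the filter, edgeR called 3 (Obox3, Usp17la and Usp17lb, all higher), with 5.67% of 21185 genes called and 3.11% called higher. When embryo numbers entered as a replicate block, edgeR called 1 member (Obox8, higher), with 6.05% of genes called and 3.02% called higher. That fit used only numbers present in both groups, so it also left out Ehmt2Mat embryo 4.

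**Figure D2:**
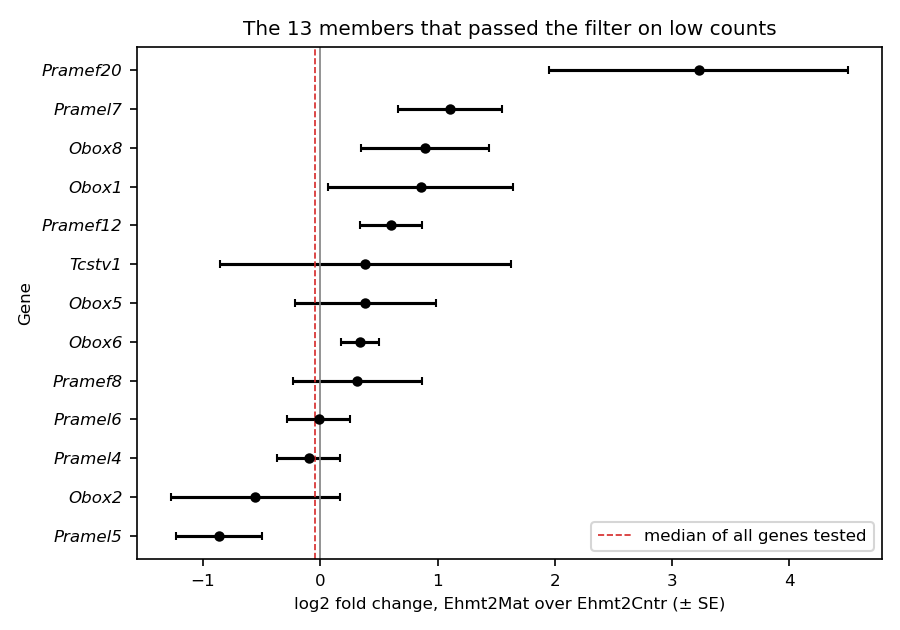
Fold change between Ehmt2Mat and Ehmt2Cntr embryos (log2, points, bars are standard errors from edgeR) of the 13 members that passed the filter. Points reach from -0.86 in Pramel5 to 3.23 in Pramef20, and none passed an adjusted p of 0.05. The dashed line is the median of all genes tested.

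Among homeobox members, Obox6 and Obox8 carried the family. Obox6 had 802 to 2228 CPM in controls (median 1593) and 1586 to 2418 CPM in Ehmt2Mat embryos (median 2091). Of the Ehmt2Mat embryos 3 lay above every control, and 4 controls lay below every Ehmt2Mat embryo, with a log2 fold change of 0.34 (SE 0.16) that was not called (adjusted p = 0.208). Obox8 was the more variable gene. It had 17.6 to 1287 CPM in controls (median 769.5) and 367 to 1962 CPM in Ehmt2Mat embryos (median 1218), with 5 Ehmt2Mat embryos above every control. The 3 lowest controls fell below all Ehmt2Mat embryos, and the log2 fold change of 0.89 (SE 0.55) was not called (adjusted p = 0.347). In embryos of zygotic genotype +/- alone (3 controls and 5 Ehmt2Mat) it was 0.23 (edgeR, adjusted p = 0.987).

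The other Obox genes were low. Obox5 had 0 to 21.02 CPM in controls and 5.57 to 19.03 CPM in Ehmt2Mat embryos (log2 fold change 0.39, adjusted p = 0.773), so that the Ehmt2Mat range lay inside that of controls. Obox1 had medians of 1.00 and 3.06 CPM (0.86, adjusted p = 0.573) and Obox2 medians of 3.38 and 2.59 CPM (-0.56, adjusted p = 0.713), and these share reads as shown above. Obox3 had 1 count in a single control and 80 counts spread over 7 Ehmt2Mat embryos, of which 28 were in embryo 4 and 33 in embryo 9. Summed over groups and scaled to library size this is a ratio of 82.6 with a 95% exact interval of 14.4 to 3300 for counting error only. Without the filter edgeR gave Obox3 an adjusted p of 0.0371 and DESeq2 gave 0.0242, while the exact permutation test over embryos gave 0.137 (two-sided, adjusted over 21185 genes).

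**Figure D3:**
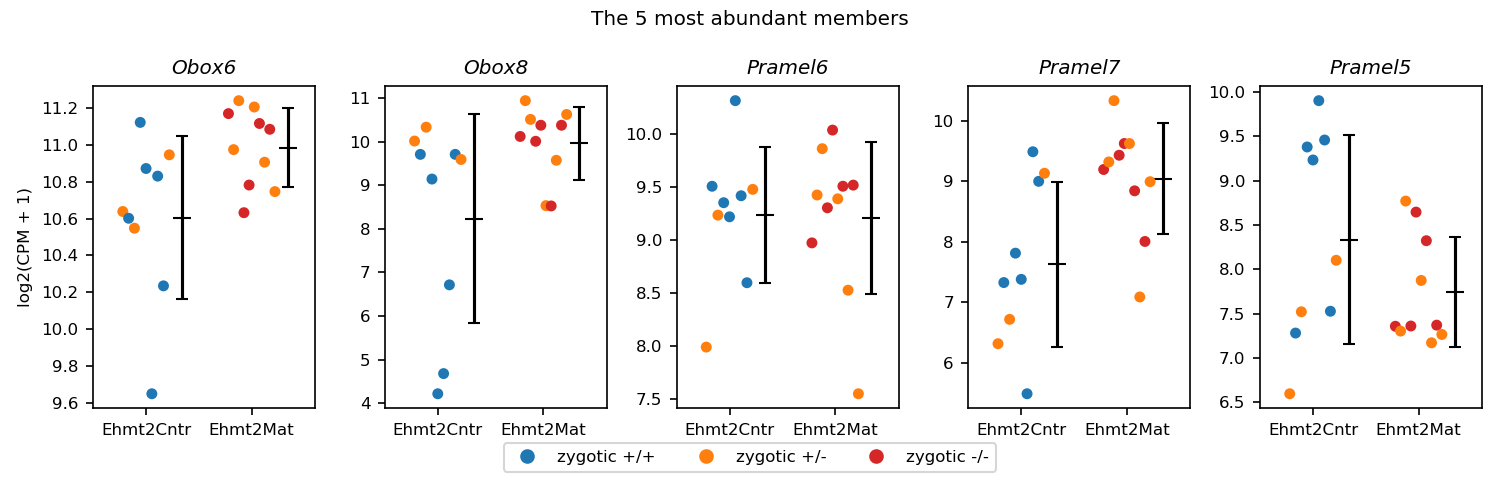
Level of the 5 most abundant members in each embryo as log2(CPM + 1), 9 Ehmt2Cntr against 10 Ehmt2Mat embryos, coloured by zygotic genotype, with mean and SD beside the points and a separate vertical axis for each gene. Obox8 and Pramel5 spread more widely in controls, Pramel7 is lower in most controls, and every gene has embryos of both groups at the same level.

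As a family, Obox counts summed to 828.5 to 2821 CPM in controls (2241 ± 647, SD, n = 9) and 2605 to 4003 CPM in Ehmt2Mat embryos (3195 ± 519, SD, n = 10). The groups overlapped only between 2605 and 2821 CPM, and the lowest control (embryo 7) stood apart at 828.5 CPM. The log2 fold change of the sum was 0.51 (SE 0.18) and was not called (edgeR, adjusted p = 0.0754, where 9.36% of 11746 rows were called). DESeq2 gave 0.0512 for the same sum, and within zygotic genotype +/- the log2 fold change was 0.26 (edgeR, adjusted p = 0.961). Obox6 alone made up 68.3% of it.

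The PRAME-related members had fold changes of both signs, and none was called in the main test. Pramel7 had 43.9 to 717 CPM in controls (median 165.5) and 135 to 1287 CPM in Ehmt2Mat embryos (median 611). Controls 8, 9 and 10 had 510 CPM or more and the other 6 had at most 224 CPM, 3 Ehmt2Mat embryos lay above all controls, and the groups overlapped, with a log2 fold change of 1.11 (SE 0.44, adjusted p = 0.119). Leaving out control embryo 8 raised this to 1.41 with an adjusted p of 0.0492. Pramel5 had 95.7 to 956 CPM in controls (median 274) and 143 to 435 CPM in Ehmt2Mat embryos (median 164). Here 4 controls lay above every Ehmt2Mat embryo and the log2 fold change was -0.86 (SE 0.37, adjusted p = 0.151). Within zygotic genotype +/- the sign turned (0.26, adjusted p = 0.984), and the control median was 182.5 CPM in the 3 +/- embryos and 633 CPM in the 6 +/+ embryos. Pramel6 had medians of 654 and 679 CPM (log2 fold change -0.012, SE 0.27, adjusted p = 0.985) and Pramel4 medians of 54.6 and 48.8 CPM (-0.098, SE 0.27, adjusted p = 0.881), with the groups overlapping over nearly their whole range. The Pramel sum was 1419 ± 593 CPM in controls (SD, n = 9) and 1548 ± 617 CPM in Ehmt2Mat embryos (SD, n = 10), a log2 fold change of 0.13 (SE 0.26, adjusted p = 0.841).

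Pramef genes had lower levels. RefSeq names Pramef12, Pramef17, Pramef20, Pramef25 and Pramef6 as Pramel13, Pramel14, Pramel15, Pramel16 and Pramel11. The Pramef and Pramel sums therefore split PRAME-related genes by the symbol used here and are not separate families by RefSeq name. Further genes with a Pramel or related RefSeq symbol, given below, are in neither sum. Pramef12 had 27.2 to 92.3 CPM in controls (median 40.8) and 43.6 to 116 CPM in Ehmt2Mat embryos (median 81.5), with 5 controls below every Ehmt2Mat embryo and a log2 fold change of 0.60 (SE 0.27, adjusted p = 0.168). Pramef20 was at or under 2.0 CPM in all controls and reached 14.8 CPM in Ehmt2Mat embryos, of which 6 lay above every control and 2 had no count. Its log2 fold change of 3.23 (SE 1.27) did not pass in edgeR (adjusted p = 0.115) and passed in DESeq2 (3.28, adjusted p = 0.0404). Within zygotic genotype +/- it was 7.05 (edgeR, adjusted p = 0.633). Pramef8 had medians of 13.3 and 16.1 CPM (0.32, SE 0.55, adjusted p = 0.802). The Pramef sum was 67.0 ± 20.3 CPM in controls (SD, n = 9) and 101 ± 27.1 CPM in Ehmt2Mat embryos (SD, n = 10), a log2 fold change of 0.59 (SE 0.21) that was not called by edgeR (adjusted p = 0.0754) and was called by DESeq2 (adjusted p = 0.0371). In the embryos of zygotic genotype +/- alone (3 controls and 5 Ehmt2Mat) the fold change of this sum was -0.0040.

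**Figure D4:**
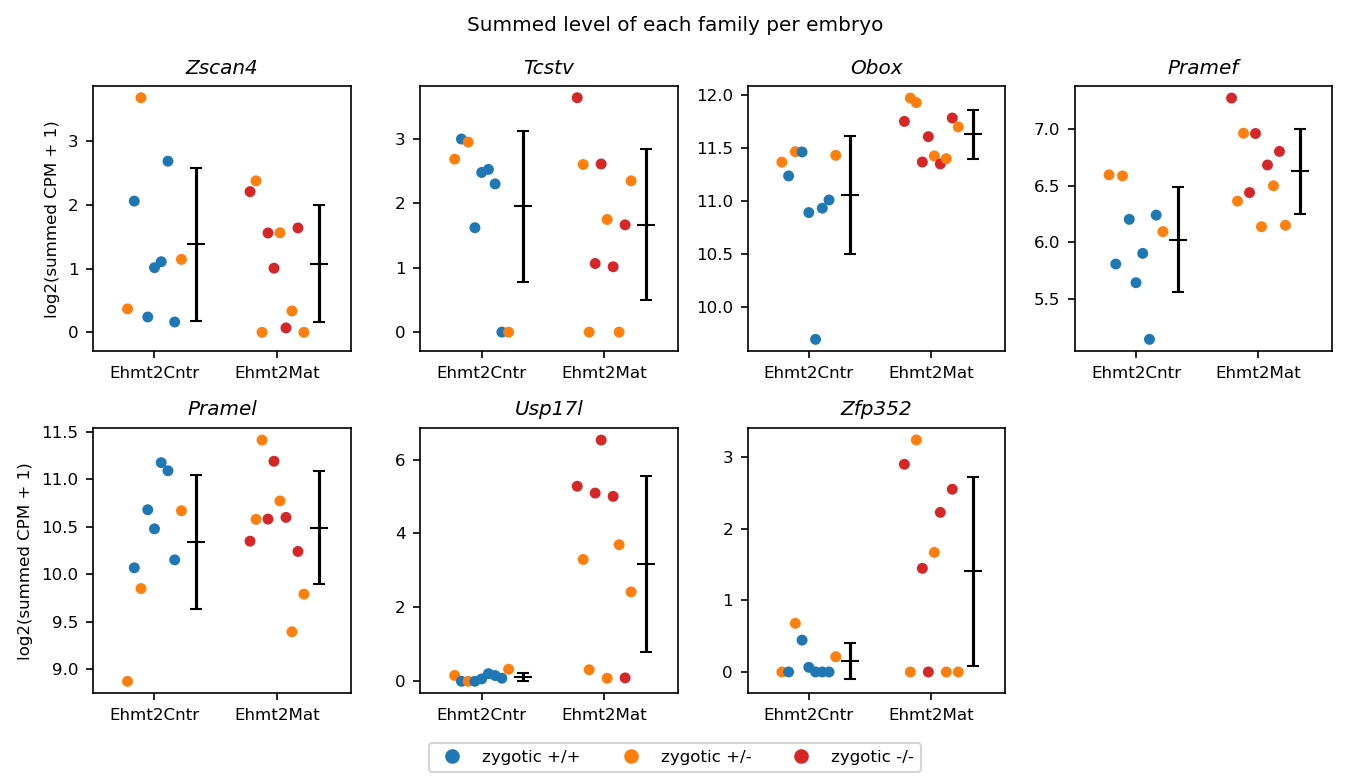
Summed CPM of each family per embryo as log2(CPM + 1), 9 Ehmt2Cntr against 10 Ehmt2Mat embryos, coloured by zygotic genotype, with mean and SD beside the points and a separate vertical axis for each family. The Obox and Pramef sums lie higher in most Ehmt2Mat embryos with overlap, the Zscan4, Tcstv and Pramel sums overlap over most of their range, and Usp17l and Zfp352 are near 0 in controls.

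Zscan4 counts were low in both groups, and no difference was called. Counts of Zscan4d in controls 1, 2, 3, 5, 6, 7, 8, 9 and 10 were 0, 50, 196, 2, 1, 8, 35, 2 and 1, and in Ehmt2Mat embryos 1 to 10 they were 25, 61, 0, 62, 0, 33, 1, 6, 30 and 0. Embryos with over 20 counts occurred in both groups, and 4 of 9 controls and 6 of 10 Ehmt2Mat embryos had 3 counts or more. The difference in mean log2(CPM + 1) of 0.026 did not pass the exact permutation test (two-sided, adjusted p = 1.0). Zscan4f reached 3 counts in 5 controls and 2 Ehmt2Mat embryos, Zscan4c in 3 of each and Zscan4b in 0. Summed, the family had 0.118 to 11.8 CPM in controls (median 1.15) and 0 to 4.19 CPM in Ehmt2Mat embryos (median 1.48), a log2 fold change of -0.84 with a standard error of 0.99 (adjusted p = 0.677). Without control embryo 3 it was -0.075 (adjusted p = 0.978).

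Tcstv genes were equally uneven. Tcstv1 had 3 counts or more in 4 of 9 controls and 8 of 10 Ehmt2Mat embryos (log2 fold change 0.39, SE 1.24, adjusted p = 0.901). This value was not stable, since it was 3.57 (SE 2.58, adjusted p = 0.465) with the replicate block, -0.64 within zygotic genotype +/- and 0.084 (without Ehmt2Mat embryo 1) to 0.87 (without control embryo 2) with embryos left out. Tcstv3 showed the opposite split, with 5 controls and 3 Ehmt2Mat embryos, and its difference in mean log2(CPM + 1) of -0.77 did not pass the exact permutation test (two-sided, adjusted p = 0.397). The Tcstv sum had a log2 fold change of -0.24 (SE 1.01, adjusted p = 0.923), which was -0.72 without Ehmt2Mat embryo 1 and -0.091 without Ehmt2Mat embryo 8.

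Usp17lb was the member with the clearest difference, although it lay below the filter of the main test. Its counts were 0, 0, 0, 0, 1, 0, 3, 1 and 0 in controls 1, 2, 3, 5, 6, 7, 8, 9 and 10, and 404, 44, 1, 1066, 1094, 1, 639, 275, 1 and 53 in Ehmt2Mat embryos 1 to 10. Thus 7 Ehmt2Mat embryos had 44 counts or more, the other 3 had a single count each, and no control had more than 3. In CPM the Ehmt2Mat embryos had 0.0591 to 84.8 (median 8.16), and the 7 with 44 counts or more lay above every control. The difference in mean log2(CPM + 1) was 2.97, with an exact permutation p of 0.000779 (two-sided, all 92378 splits of the embryos) and an adjusted p of 0.0267, in a test that called 4.73% of 21185 genes, with 2.66% called higher, and no other member. Without the filter edgeR gave an adjusted p of 0.000179 and DESeq2 gave 1.97e-12.

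Leaving out any of the 9 controls moved the permutation p just over the threshold (adjusted p 0.0531 to 0.0679) with the difference at 2.96 to 2.98. Leaving out an Ehmt2Mat embryo kept it below. By zygotic genotype, 5 Ehmt2M/Z embryos had 0.0659 to 84.8 CPM (median 32.4) and 5 Ehmt2M/+ embryos had 0.0591 to 11.96 CPM (median 2.46). These ranges overlap and their difference was not tested. Within zygotic genotype +/- alone (3 controls and 5 Ehmt2Mat) the difference was 1.63, and so few embryos cannot pass a permutation test adjusted over all genes.

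The other Usp17l genes were near 0. Usp17la had 1 count in controls and 137 in Ehmt2Mat embryos, of which 54 were in embryo 2 and 82 in embryo 5, and was called by edgeR without the filter (adjusted p = 0.0431) but not by DESeq2 (0.322) or the exact permutation test (0.736). Usp17ld reached 60 counts in Ehmt2Mat embryo 2 and Usp17lc 25 in embryo 4, with 2 counts each in all controls together, and Usp17le reached 7 counts in control embryo 10. Usp17lb made up 93.75% of the counts of the family.

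Zfp352 had 0, 0, 10, 4, 1, 0, 0, 0 and 5 counts in controls 1, 2, 3, 5, 6, 7, 8, 9 and 10, and 70, 0, 70, 57, 0, 37, 76, 0, 74 and 0 in Ehmt2Mat embryos 1 to 10. It was present at 37 counts or more in 6 Ehmt2Mat embryos, all above every control, and absent in the other 4. DESeq2 called it (log2 fold change 4.43, SE 1.44, adjusted p = 0.0217), whereas edgeR without the filter (4.36, adjusted p = 0.0611) and the exact permutation test (difference of 1.25, two-sided, adjusted p = 0.146) did not. Usp17lb and Zfp352 were not high in the same set of embryos, since Ehmt2Mat embryo 5 had the most Usp17lb and no Zfp352, and embryos 3 and 9 had 1 count of Usp17lb and 70 and 74 of Zfp352.

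**Figure D5:**
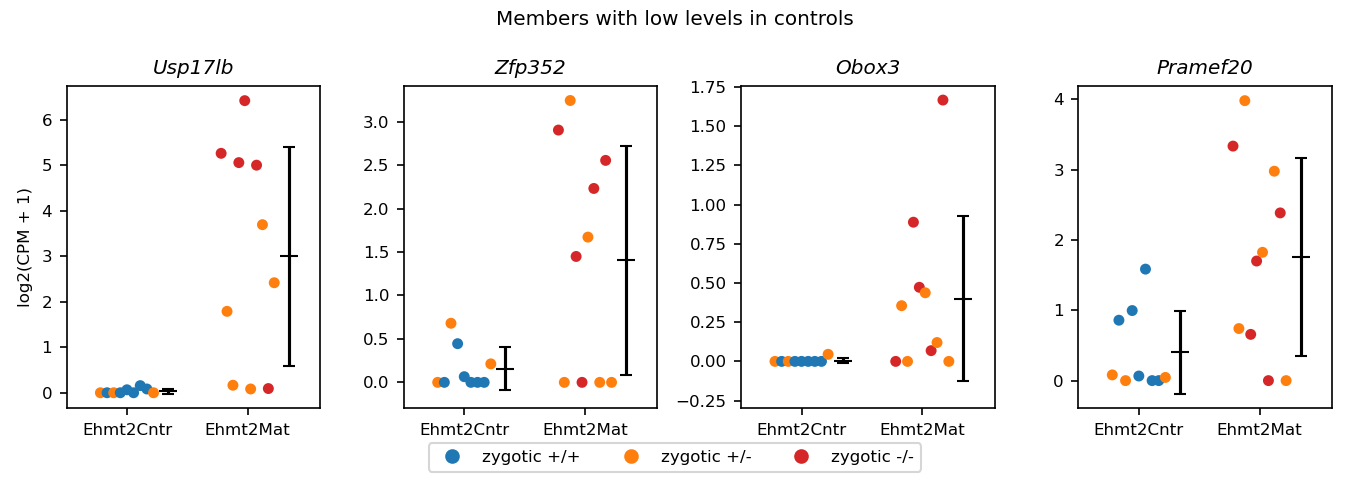
Level of Usp17lb, Zfp352, Obox3 and Pramef20 in each embryo as log2(CPM + 1), 9 Ehmt2Cntr against 10 Ehmt2Mat embryos, coloured by zygotic genotype, with mean and SD beside the points and a separate vertical axis for each gene. Controls lie near 0 for Usp17lb, Zfp352 and Obox3 and reach 2.0 CPM for Pramef20, and for each gene some Ehmt2Mat embryos lie above every control and others within the range of controls.

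Promoter sequences (250 bases before to 50 after the start, RefSeq, GRCm38.p6) matched 23 of the 31 members. For Usp17lb, Usp17la and Zfp352, which were high in some Ehmt2Mat embryos, and for Zscan4d as the highest Zscan4 gene, the stretch before the first annotated start is shown (chosen after their values were seen, with Pramef20, Usp17lc and Usp17ld left out), with capitals for the motifs searched on both strands. These were TAATCC, a core bound by OTX- and OBOX-type homeodomains, and the TATA box TATAAA, and copies of these motifs did not overlap in the stretches shown. The stretches are chr7:104842604-104842833 (minus strand), chr7:104856766-104857008 (plus strand), chr4:90218570-90218819 (plus strand) and chr7:11166183-11166398 (minus strand).
Usp17lb: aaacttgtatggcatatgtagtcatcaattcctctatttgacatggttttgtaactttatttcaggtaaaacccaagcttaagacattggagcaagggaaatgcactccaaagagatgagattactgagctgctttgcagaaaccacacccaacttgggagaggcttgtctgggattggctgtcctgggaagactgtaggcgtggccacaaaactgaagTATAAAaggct
Usp17la: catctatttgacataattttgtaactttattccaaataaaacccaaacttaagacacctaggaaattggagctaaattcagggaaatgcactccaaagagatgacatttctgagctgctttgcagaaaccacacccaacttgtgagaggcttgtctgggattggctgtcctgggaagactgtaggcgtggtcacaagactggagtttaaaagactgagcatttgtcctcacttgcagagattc
Zfp352: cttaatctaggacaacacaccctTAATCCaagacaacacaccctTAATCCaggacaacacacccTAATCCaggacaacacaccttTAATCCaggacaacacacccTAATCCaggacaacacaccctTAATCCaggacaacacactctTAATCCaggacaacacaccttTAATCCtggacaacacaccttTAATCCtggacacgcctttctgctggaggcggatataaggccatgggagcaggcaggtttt
Zscan4d: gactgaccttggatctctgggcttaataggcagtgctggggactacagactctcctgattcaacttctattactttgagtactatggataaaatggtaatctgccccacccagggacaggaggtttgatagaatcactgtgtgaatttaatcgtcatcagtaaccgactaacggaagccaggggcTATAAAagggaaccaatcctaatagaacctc

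The Zfp352 promoter held 9 copies of TAATCC in a tandem repeat, the highest number in any of 32817 promoters. At least 1 copy was found in 4 of 23 member promoters (Pramef6, Pramel4, Pramel5 and Zfp352) and in 7.06% of all promoters. TATAAA was found in 7 of 23 (all 4 Zscan4 genes, Usp17lb, Usp17lc and Usp17ld) and in 13.6% of all. The promoters of Usp17la and Usp17lb aligned with 75.5% identity, those of Zscan4c and Zscan4d with 90.4% and those of Pramel4 and Pramel5 with 83.4%. These matches describe the letters in the windows and are not binding sites.

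Genes around the same programme were counted from lists. Of 22 further genes of the 2-cell programme, 10 were tested and 0 were called in either direction (4.37% of all genes were called higher and 4.98% lower). The most abundant was Ubtfl1, a retrogene of the UBF family, with 72.7 ± 80.2 CPM in controls (SD, n = 9) and 152 ± 58.8 CPM in Ehmt2Mat embryos (SD, n = 10, log2 fold change 1.06, adjusted p = 0.168), followed by AF067063 (0.66, adjusted p = 0.358). Among activators of the programme 0 of 4 tested were called. Duxf3, which encodes DUX, had no count in any embryo. It lies in a repeated array, and where reads of several positions were removed before counting, such a 0 sets no limit on its level. The most abundant activators were Dppa3 (log2 fold change 0.32, adjusted p = 0.229) and Dppa2, an activator of Dux, which had 393 ± 168 and 645 ± 166 CPM (0.72, SE 0.24, adjusted p = 0.0577).

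Of 18 repressors of the programme, all tested, 1 was higher and 0 were lower. The higher gene was Ncl, encoding nucleolin, with 774 ± 213 CPM in controls (SD, n = 9) and 1410 ± 380 CPM in Ehmt2Mat embryos (SD, n = 10, log2 fold change 0.87, SE 0.19, adjusted p = 0.00491). Further PRAME-like genes under other names gave 0 calls among 9 tested (of 15 listed), and 0 of 12 tested among 22 genes that carry a Pramel or related symbol in RefSeq. Among those, Oog3 had 72.7 ± 58.4 and 48.5 ± 42.5 CPM, D5Ertd577e 68.6 ± 32.2 and 49.4 ± 14.7 CPM, and Gm3139 205 ± 49.8 and 230 ± 49.4 CPM in controls and Ehmt2Mat embryos. The PRAME-like list and the RefSeq list share C87414, C87499, C87977 and D5Ertd577e, all of them tested, so their counts cannot be added.

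Relatives of the members with a single copy were counted against the same background of 9.35% of genes called, 4.37% higher. Crxos, a homeobox gene related to the Obox genes, rose from 281 ± 57.3 CPM in controls (SD, n = 9) to 473 ± 107 CPM in Ehmt2Mat embryos (SD, n = 10, log2 fold change 0.75, SE 0.17, adjusted p = 0.0055) and was the only call among 4 tested homeobox relatives. Zscan5b rose from 167 ± 65.9 to 370 ± 60.3 CPM (log2 fold change 1.15, SE 0.24, adjusted p = 0.00426), the only call among 8 tested single-copy SCAN zinc finger genes. All 10 Ehmt2Mat embryos had more Zscan5b (278 to 452 CPM) than any control (31.4 to 261 CPM). Of the 8C markers 3 of 8 tested were higher (Klf17, Tead4 and Tfap2c) and 2 lower (Gata6 and Klf5). Of 9 oocyte markers tested, Oosp1 was higher (11.8 ± 9.36 and 76.7 ± 52.4 CPM, adjusted p = 0.00277) and 0 were lower.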

How the data were processed

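Gene counts of 19 single embryos were used as the authors deposited them: raw counts of reads on exons of Ensembl release 82 (GRCm38), without normalization. The deposited file headers record featureCounts 1.5.0 on reads overlapping by at least 10 bases, each counted for all genes it touched, with multi-mapping reads kept and strand ignored. The headers name no aligner. In the study's methods TopHat2 served gene expression, while bowtie, restricted to unique alignments, and featureCounts served transposable elements, and which alignment these counts came from is not stated. The alignment name may mean that only uniquely mapping reads were present, in which case counts of near-identical copies cover only their unique part, and otherwise a read may be counted for several copies. Submitters' processing notes name TopHat2, featureCounts and DESeq2.

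Genes were tested with edgeR 4.0.16 (R 4.3.3) by the quasi-likelihood test after filterByExpr and TMM normalization, Benjamini-Hochberg adjusted over all genes, threshold 0.05. CPM use TMM-scaled library sizes. Family sums replaced their members as 1 row each. DESeq2 1.42.0, no filter, RLE, upper-quartile normalization, at least 10 counts in every embryo, thinning, a replicate block, embryos of zygotic genotype +/- and each embryo left out were alternatives. Added after seeing the data were the exact permutation test on log2(CPM + 1) for every gene with a count (two-sided, pseudocount 0.1 as alternative) and the RefSeq-symbol list. Scripts were tested on simulated data.

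All members that passed the filter and the highest of each family per kilobase were named, and from each list up to 4 called genes with the smallest adjusted p, or else the 2 most abundant. Other members, and context genes outside this rule, were named after their values were seen. The members and lists were chosen with earlier results of these data known.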

Additional observations from a re-analysis of the deposited data

Results flagged for a closer look

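In 46 groups of embryos tested for a value that stands apart from the rest, 4 did, where chance gives about 1 in 20. Gaps are given as a share of the group's range on log2(CPM + 1). Zscan4d in control embryo 3 had 11.8 CPM with the next control at 2.26 (gap of 0.537). Tcstv3 in Ehmt2Mat embryo 1 had 3.99 CPM with the next at 0.447 (0.77). The Obox sum in control embryo 7 was 828.5 CPM with the next at 1896 (0.676). Pramef8 in Ehmt2Mat embryo 3 had 1.70 CPM with the next at 9.59 (0.544), and this embryo had the lowest total count of all 19, 8231646.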

How the results depend on the processing

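The number of members called was 0 in the main fit, 4 with DESeq2, 3 without the filter and 1 with the replicate block (Obox8, log2 fold change 1.65, adjusted p = 0.0389), and 0 to 1 when single embryos were left out (Pramel7 without control 8). The fit with the block, which also left out Ehmt2Mat embryo 4, changed no other call among the members and family sums tested in edgeR. Embryos that share a number deviated with correlations of -0.156 to 0.0856 over 9 pairs, 0 of them best with their own number. These correlations gave no sign of pairing by number, and a weaker pairing was not tested.

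The Pramef sum was called by DESeq2 (0.59, adjusted p = 0.0371), ranged over 0.50 to 0.67 with embryos left out (called without Ehmt2Mat embryo 10, adjusted p = 0.0490) and was -0.0040 within zygotic genotype +/-. The Pramel sum ranged from -0.0040 (without Ehmt2Mat embryo 3) to 0.24. Within zygotic genotype +/-, signs turned for Tcstv1 (-0.64), Pramef12 (-0.12), Pramel5 (0.26) and Pramel6 (0.089). Values lay further from 0 there for Pramef20 (7.05), Obox2 (-1.21) and the Pramel (0.55), Zscan4 (-1.80) and Tcstv (-0.82) sums, among others. With 3 controls and 5 Ehmt2Mat embryos, even the largest of these was not called (edgeR, adjusted p = 0.633). Pramel6, near 0 in the main fit, was 0.017 with upper-quartile normalization, 0.0080 without the filter, 0.016 after thinning and -0.12 to 0.17 with embryos left out, and Pramel4 was -0.24 to 0.034. The Zscan4d difference in mean log2(CPM + 1) was -0.029 after thinning, -0.43 within +/- and -0.11 to 0.38 with embryos left out. Its log2 fold change, a different measure, was -0.56 in edgeR without the filter and -0.63 in DESeq2. The causes were not tested. The Zscan4 sum of mostly unique copies fell below the filter and gave no value. Depth limits the Zscan4, Tcstv, Usp17l and Zfp352 values, many of which rest on fewer than 100 counts in an embryo.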

Other observations

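The 3 controls with the lowest Obox8 were embryos 6, 7 and 8, with 17.6, 24.6 and 104 CPM, and the other 6 controls had 564 to 1287 CPM. Pramel5 had 601, 956 and 702 CPM in these 3 embryos and 95.7 to 665 CPM in the other controls, an overlap that comes from control embryo 5 alone. Cdx2, a trophectoderm factor, had 12.6, 33.1 and 7.99 CPM in these embryos, and at most 0.0592 CPM in the other controls and 1.56 CPM in Ehmt2Mat embryos. These embryos were singled out after their values were seen, and the relation was not tested.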
